A study of Saccharomyces cerevisiae with 6 samples.

Results

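The genes described here encode pre-mRNA splicing factors of budding yeast (Saccharomyces cerevisiae). They are the probe sets whose annotated gene symbol is PRP followed by a number, together with the named Sm, SNU, MUD, U2 and U5 genes SMB1, SMD1, SMD2, SMD3, SME1, SMX2, SMX3, SNU13, SNU23, SNU56, SNU66, SNU71, SNU114, MUD1, MUD2, LEA1, MSL1 and BRR2. This gave 42 of the 9275 tested probe sets, for 41 genes, since PRP39 has a second, dim probe set. RNA was compared between strain Y117, with wild-type histone H2B, and strain Y118, in which H2B carries the K123R substitution, with 3 cultures of each. The lysine concerned is the residue to which a single ubiquitin is attached, and arginine in its place cannot take it. Cultures of both strains in early stationary phase were diluted into 150 ml of YPD, a rich glucose medium, at an optical density of 0.3 and shaken for 7 hours at 30 degrees until the optical density reached 2. Total RNA was labelled with biotin and hybridised to Affymetrix S98 arrays, 1 array per culture. Each group is 1 strain, so the substitution and any other difference between the strains cannot be told apart, and p-values measure only the spread between these cultures. In RNA from whole cultures, fewer cells that express a gene and less of its RNA per cell cannot be told apart either.

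Splicing removes introns from pre-mRNA in the spliceosome, which is built on each intron from small nuclear ribonucleoproteins (snRNPs). The U1 snRNP pairs with the 5′ splice site, the U2 snRNP pairs with the branch point, and the U4/U6 and U5 snRNPs join as a preassembled tri-snRNP. Each of the U1, U2, U4 and U5 RNAs carries a ring of Sm proteins. ATP-driven helicases and the Prp19 complex then rearrange the particle for both catalytic steps, release the mRNA and recycle the parts. In yeast few genes contain introns, but the ribosomal protein genes among them supply much of the mRNA of a growing cell.

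The median signal per array was 131 to 139. H2B K123R replicate 1 stood apart: its log2 signals correlated with the other arrays of its group at 0.958 and 0.969, against 0.991 between H2B K123R replicates 2 and 3. For the actin control, the 3′ signal was 1.98 times the 5′ signal there and 1.40 to 1.59 times on the remaining 5 arrays. As a check of mating type, the summed signal of 7 a-specific genes was 13031 to 13781 on the wild-type arrays and 10685 to 11667 on the mutant arrays, and that of 4 alpha-specific genes was 263 to 298 and 371 to 444. Of the a-specific genes, 2 passed as lower in H2B K123R, the pheromone gene MFA1 (log2 difference -0.61, limma adjusted p = 0.0330) and the protease gene BAR1 (-0.40, 0.0339), while STE2, STE6, AGA2, MFA2 and ASG7 did not pass. Of the alpha-specific genes, 2 passed as higher, the pheromone genes MF(ALPHA)1 (0.66, 0.0385) and MF(ALPHA)2 (0.62, 0.0297), at mean signals of 44.4 and 79.4 and of 40.8 and 71.6, while STE3 and SAG1 did not pass. These 4 calls were lost with the replicate number as a block (adjusted p between 0.0719 and 0.0774) and when any array but H2B K123R replicate 1 was left out, and that of BAR1 also without a variance trend (0.0540). Their part in the results for the splicing factors was not tested. Results that rest on H2B K123R replicate 1 are given with and without it.

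At a limma adjusted p of 0.05, none of the 42 splicing factor probe sets was called, against 6.68% of all tested probe sets (4.22% higher and 2.47% lower). At an unadjusted p under 0.05 there were 6 (14.3%), 4 higher and 2 lower in H2B K123R, where all tested probe sets gave 24.9%. The median log2 difference of the members was 0.09, with 25 positive and 17 negative, and the median over all tested probe sets, many of them without a named gene, was 0.02. With 1 probe set per gene, the brightest, the median was 0.10 for the 41 member genes and 0.08 over all 5656 genes, and 25 of 41 (61.0%) were positive against 60.4% of all genes. The differences ran from -0.67 for PRP6 to 0.52 for SMD3. For 13 of the 42 (31.0%) there was no overlap between wild-type and mutant arrays, against 32.5% of all probe sets: in 6 all mutant arrays lay above all wild-type arrays (19.0% of all probe sets) and in 7 they lay below (13.5%). With 1 probe set per gene these were 12 of 41 (29.3%), 6 above and 6 below, against 39.3% of all genes (25.5% above and 13.8% below), and 5 of 41 (12.2%) had an unadjusted p under 0.05, against 30.7%. The median standard error of a member's difference was 0.14 on the log2 scale. The 95% interval of the difference, taken gene by gene, lay within 1.5-fold in either direction for 26 of the 42 and within 2-fold for 40; those that reached past 2-fold, downward, were PRP6 and PRP18.

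**Figure D1:**
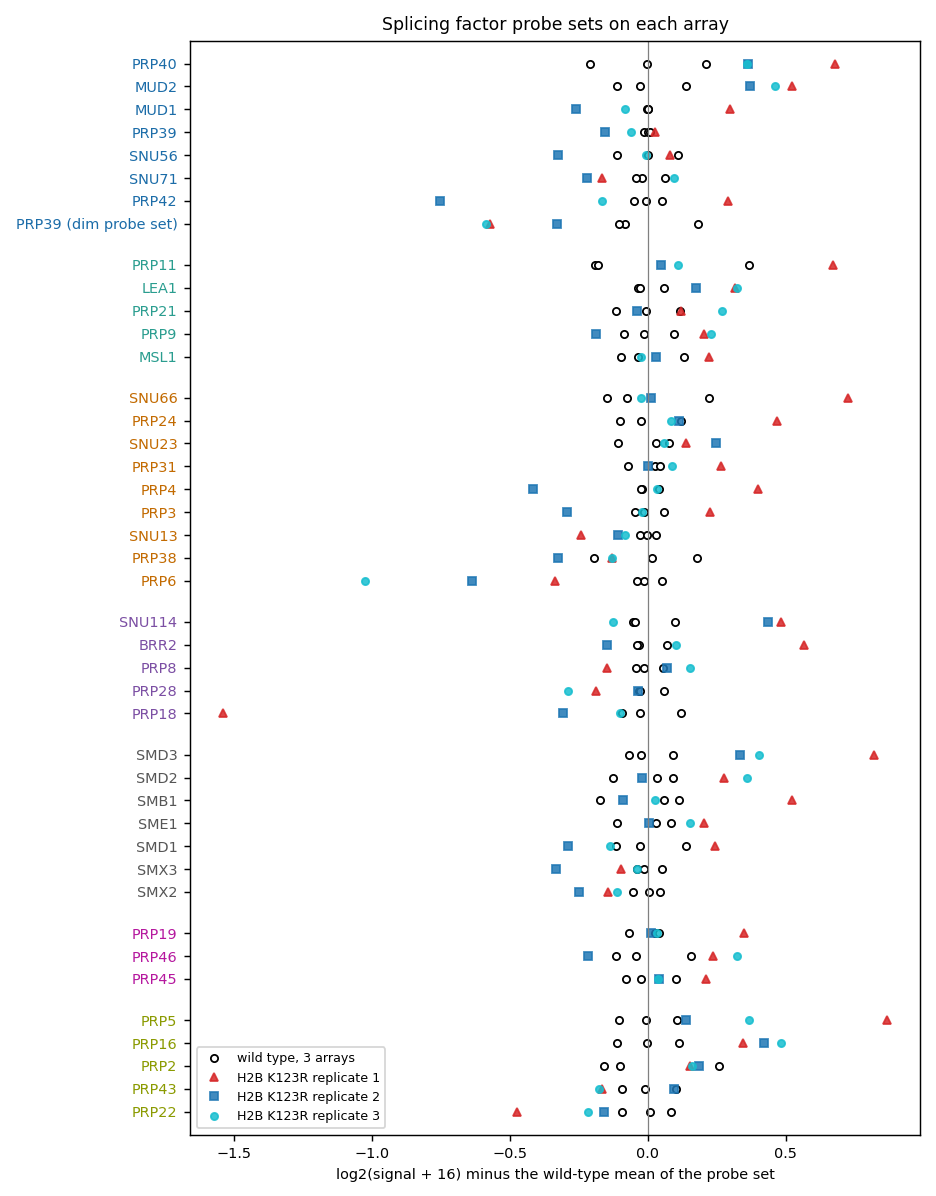
Each row is a splicing factor probe set and each point 1 array, as log2(signal + 16) minus the wild-type mean of that probe set; open circles are the 3 wild-type arrays, and row colours mark the 7 groups of factors. H2B K123R replicate 1 (red triangles) is the highest mutant array for 23 of the 42 probe sets and for 4792 of all 9275 tested. It lies far to the left for PRP18.

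The first part of the assembly is the U1 snRNP with the commitment complex. MUD2 encodes the partner of the branch point binding protein and resembles the large subunit of human U2AF. It read 198, 175 and 164 on the wild-type arrays and 264, 236 and 252 on the mutant arrays. All mutant arrays lay above all wild-type arrays, and the means were 179 ± 17.3 and 250.2 ± 14.0 (mean ± SD over the 3 arrays of a group, as in all values given so). The difference was 1.37-fold on the log2(signal + 16) scale, on which all folds here are given, with a log2 difference of 0.45 (95% interval 0.18 to 0.72; limma adjusted p = 0.0648). PRP40 encodes the U1 protein that contacts the branch point complex across the intron. Its signals were 151, 128 and 109 in wild type and 215, 169.8 and 169.5 in H2B K123R, again without overlap, at a log2 difference of 0.47 (95% interval 0.08 to 0.85; adjusted p = 0.136). Both of these factors bridge the ends of the intron, and neither passed.

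The other U1 proteins differed less. MUD1, the homologue of the human U1 A protein, had means of 130.4 and 130.9, and SNU71 had 187 and 174. SNU56 read 29.7 and 27.3, and the brighter probe set of PRP39 113 and 108; PRP39 and PRP42 are related helical repeat proteins of U1. The mutant arrays of PRP42 were scattered: 277 on replicate 1, 126 on replicate 2 and 198 on replicate 3, around wild-type signals of 233, 216 and 223. Its log2 difference was -0.21 on all arrays and -0.46 without H2B K123R replicate 1, and it was not called in either fit (adjusted p = 0.647 and 0.157). The second PRP39 probe set had the smallest p of this group (adjusted p = 0.0542) but read 6.99, 6.61 and 11.6 in wild type and 0.351, 3.34 and 0.202 in H2B K123R. These signals lie within or below those of the 4 mouse control probe sets, which ran from 0.922 to 18.3 over the arrays, so no fold is given. The brighter PRP39 probe set, at a log2 difference of -0.06 (95% interval -0.34 to 0.21), did not show the difference of the dim one.

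Of the 5 U2 snRNP genes, each had a positive log2 difference, as did 60.4% of all genes taken with 1 probe set each, and none passed. LEA1, which encodes the yeast counterpart of the human U2 A′ protein, read 60.9, 66.1 and 61.3 in wild type and 82.2, 73.0 and 82.6 in H2B K123R. The arrays did not overlap, and the log2 difference was 0.27 (95% interval -0.02 to 0.56; adjusted p = 0.224). MSL1, its partner, the counterpart of human B″, read 104 and 111. The 3 subunits of the yeast SF3a complex, which brings U2 to the branch point, were PRP9 (231 and 247), PRP11 (109.8 and 137) and PRP21 (116 and 128), and the arrays of all 3 overlapped. The median log2 difference of the U2 genes was 0.12 on all arrays and 0.08 without H2B K123R replicate 1. Leaving that array out took PRP11 from 0.28 to 0.08, PRP9 from 0.08 to 0.02 and MSL1 from 0.08 to 0.003. The differences of LEA1 (0.27 and 0.25) and PRP21 (0.118 and 0.116) changed little. After cyclic loess normalization the small differences of PRP9 and MSL1 had the opposite sign, at -0.03 and -0.01.

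**Figure D2:**
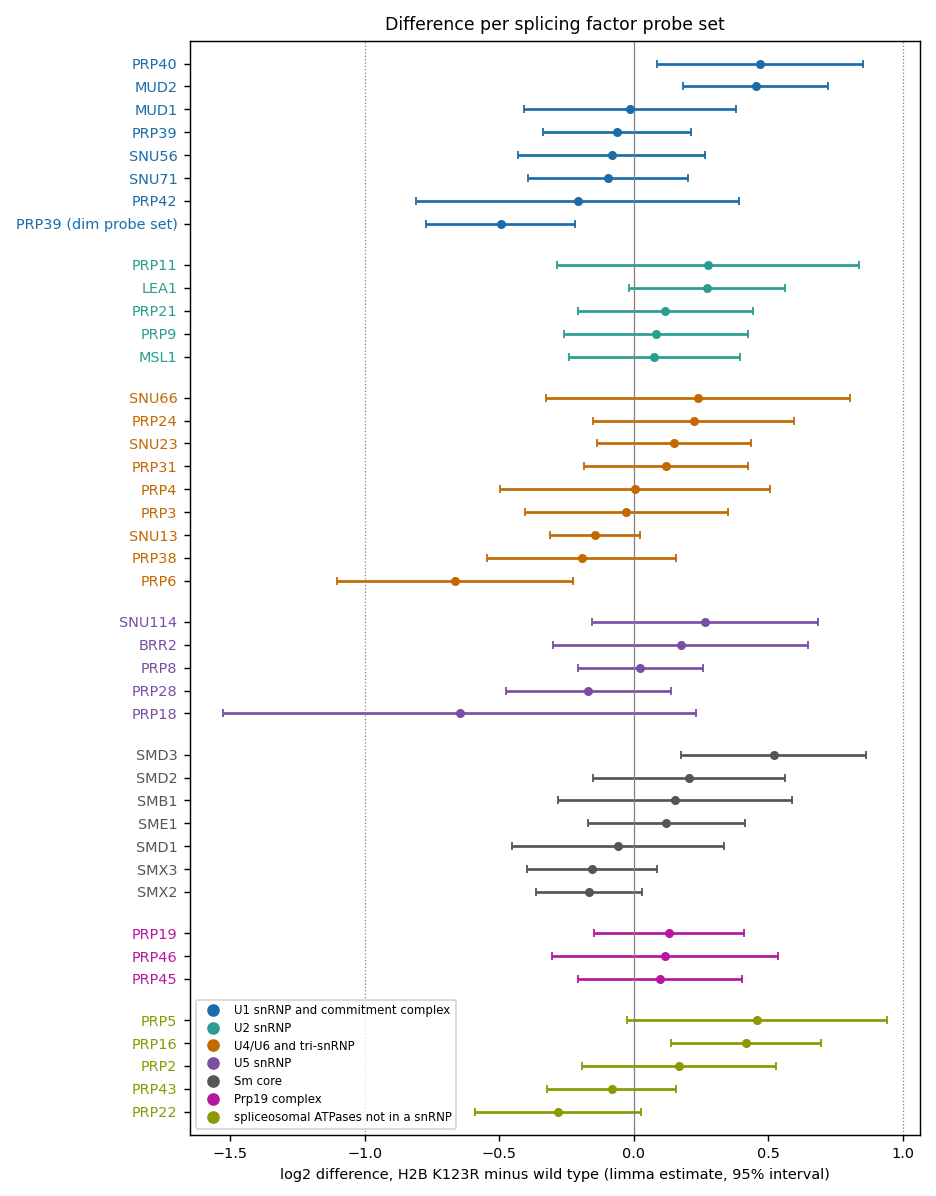
Log2 difference of H2B K123R minus wild type for each splicing factor probe set, as the limma estimate with its 95% interval; dotted lines mark a 2-fold difference in either direction and colours mark the 7 groups of factors. The largest positive difference is SMD3 at 0.52, the most negative is PRP6 at -0.67, and the widest interval is that of PRP18.

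PRP6 had the most negative difference of all 42. It encodes the protein that bridges the U5 and U4/U6 snRNPs in the tri-snRNP. The wild-type arrays read 216, 212 and 226, and the mutant arrays 169.6, 135 and 98.97. The wild-type signals lay close together, all mutant signals lay below them, and the mutant signals spread over a wider range (218 ± 7.40 against 134 ± 35.3). The difference was 1.59-fold lower, with a log2 difference of -0.67 (95% interval -1.11 to -0.23; adjusted p = 0.0837). Without H2B K123R replicate 1, whose signal was nearest to wild type, PRP6 passed at -0.83 (adjusted p = 0.0200, where 11.0% of all probe sets passed). It also passed after cyclic loess, at -0.77 (adjusted p = 0.0303, where 9.95% of all did). Over its 14 alternatives fitted by probe set the adjusted p ran from 0.00169 to 0.262.

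The remaining U4/U6 and tri-snRNP genes did not come near the threshold. PRP3 (133 and 131) and PRP4 (137 and 142), whose products form a pair on the U4/U6 helix, had log2 differences of -0.03 and 0.01. PRP4 had 186 on mutant replicate 1, 98.96 on replicate 2 and 141 on replicate 3. The sign of its near-zero difference turned under quantile normalization (-0.03) and cyclic loess (-0.09). PRP31, which binds the U4 RNA with Snu13, read 97.9 and 108. SNU13 encodes a small RNA-binding protein that also serves in the box C/D particles of ribosomal RNA modification. Its signal was 6975, 7109 and 7267 in wild type and 6014, 6603 and 6723 in H2B K123R, a narrow gap without overlap and a log2 difference of -0.14 (95% interval -0.31 to 0.02; adjusted p = 0.261). The SNU13 difference shrank to -0.02 after quantile normalization and to -0.04 after cyclic loess (limma adjusted p = 0.818 and 0.633). PRP24, which anneals U6 to U4, read 68.5 and 83.1. The tri-snRNP proteins SNU66 (58.7 and 74.2), SNU23 (122.6 and 138) and PRP38 (51.0 and 42.4) overlapped between the groups. SNU66 read 107 on H2B K123R replicate 1 and 58.9 and 57.0 on the others, and its log2 difference of 0.24 was -0.01 without that array.

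The tri-snRNP is annealed around U6 RNA, encoded by the RNA gene SNR6, whose signal was higher in H2B K123R. Its probe set read 51.5, 101.4 and 70.1 in wild type and 137, 195 and 175 in H2B K123R, a log2 difference of 1.06 (adjusted p = 0.0475). Leaving out any 1 of the 5 arrays besides H2B K123R replicate 1 ended the call (adjusted p between 0.0844 and 0.175), and after cyclic loess the adjusted p was 0.0679. The U4 RNA gene SNR14 read 65.6 and 51.8, the U1 RNA gene SNR19 35.0 and 33.3, and the long form of U5 RNA, SNR7-L, 18.7 and 19.0, the last near the signals of the mouse controls. None of these 3 passed. The mean signals of all 4 RNA genes over the arrays lay below the median of all tested probe sets. How far these signals follow the amounts of the mature RNAs was not tested.

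In the U5 snRNP the scaffold of the active site, PRP8, read 962 ± 33.7 and 983 ± 105, a log2 difference of 0.02 (95% interval -0.21 to 0.26). This sign turned to -0.06 after quantile normalization and after cyclic loess. BRR2, the helicase that unwinds U4 from U6, read 81.6 and 96.3, with 128 on H2B K123R replicate 1, and its log2 difference of 0.17 was -0.02 without that array. SNU114, the GTPase that works with Brr2, read 301, 337 and 303 in wild type and 445, 429.6 and 286 in H2B K123R: high on mutant replicates 1 and 2 and below wild type on replicate 3 (adjusted p = 0.401). PRP28, the helicase that displaces U1 from the 5′ splice site, read 82.5 and 71.7, with all mutant arrays just below the wild-type arrays (adjusted p = 0.455).

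PRP18, a U5-associated factor of the second catalytic step, had the largest gap of any member between H2B K123R replicate 1 and the mean of the other mutant arrays. It read 78.0, 65.2 and 68.8 in wild type and 13.8, 53.9 and 64.7 in H2B K123R. Replicate 1 was far below every other array, while replicates 2 and 3 lay just under the wild-type range. The log2 difference was -0.65 on all arrays (95% interval -1.53 to 0.23; adjusted p = 0.328) and -0.20 without replicate 1 (adjusted p = 0.373).

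**Figure D3:**
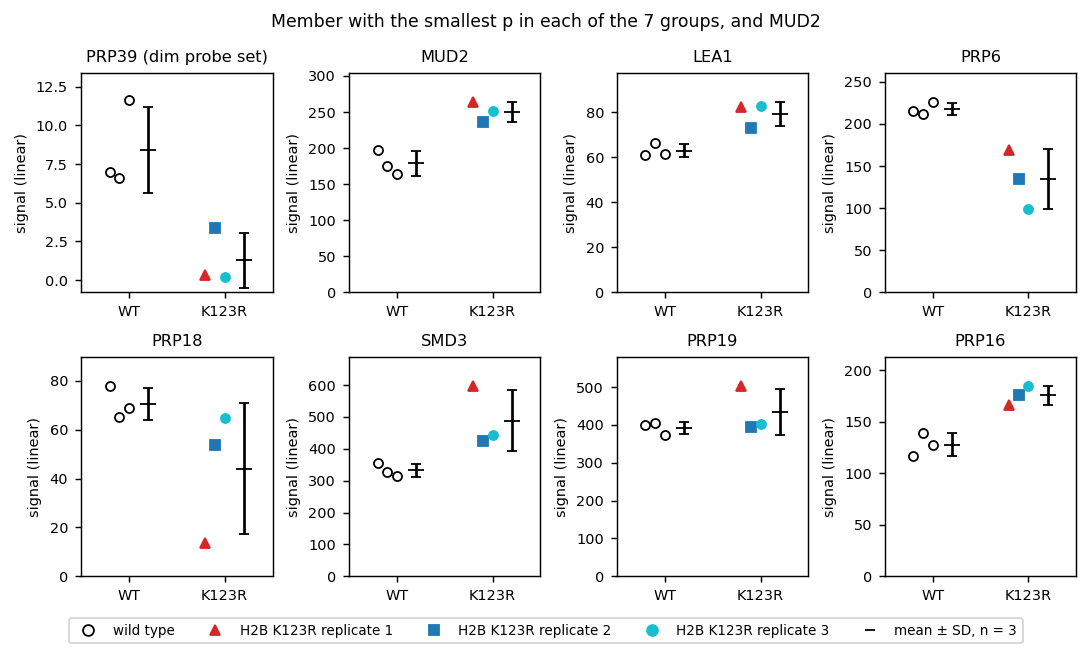
Linear signal on each array for the member with the smallest p in each of the 7 groups, and for MUD2; open circles are wild type, filled symbols H2B K123R, and bars the mean ± SD (n = 3). The groups do not overlap in any panel but that of PRP19; PRP6, with 98.97 to 169.6 against 212 to 226, and MUD2, with 236 to 264 against 164 to 198, are separated on every array.

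Among the Sm ring genes, 4 of the 7 differences were positive and 3 negative. SMD3 had the largest positive difference of all members. It read 354, 326 and 316 in wild type and 598, 423 and 444 in H2B K123R. All mutant arrays lay above wild type, replicate 1 most of all, with means of 332 ± 19.7 and 488 ± 95.3. The log2 difference was 0.52 (95% interval 0.17 to 0.86; 1.43-fold; adjusted p = 0.0843). Without H2B K123R replicate 1 the difference was smaller, 0.37, and SMD3 passed (adjusted p = 0.0470, where 11.0% of all probe sets passed). Over its 14 alternatives fitted by probe set the adjusted p ran from 0.00655 to 0.265.

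SMD1, another gene of the ring, read 195 and 189, a log2 difference of -0.06. SMD2 (94.8 and 112), SME1 (131 and 144) and SMB1 (243 and 277) were slightly higher on average, and their arrays overlapped. SMB1 read 355 on H2B K123R replicate 1, and its log2 difference of 0.15 was -0.03 without that array. The SmG gene SMX2 was lower on every mutant array: 545, 509 and 531 in wild type against 477, 442 and 489, a log2 difference of -0.17 (95% interval -0.37 to 0.03; adjusted p = 0.270). The SmF gene SMX3 read 589 and 529. SMD1 lies next to the tri-snRNP gene PRP38 on chromosome VII, the only pair of neighbouring protein-coding genes among the members in the R64 gene table, and neither passed (log2 differences -0.06 and -0.19).

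The helicases outside the snRNPs had 3 positive and 2 negative differences. PRP16, which remodels the spliceosome between the catalytic steps, read 116.7, 139 and 127 in wild type and 166, 176 and 185 in H2B K123R. The mutant arrays were close together and all above wild type (128 ± 11.3 against 176 ± 9.13), a 1.34-fold difference with a log2 value of 0.42 (95% interval 0.14 to 0.70; adjusted p = 0.0863). When 1 array was left out its adjusted p lay between 0.0533 and 0.267, the lowest of these without H2B K123R replicate 1. PRP5, which acts when U2 joins the branch point, read 95.7, 103 and 113 in wild type and 203, 116 and 139 in H2B K123R. Its log2 difference of 0.46 was carried in large part by replicate 1 and was 0.25 without it (adjusted p = 0.223 and 0.261).

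PRP22, which releases the spliced mRNA, was lower on every mutant array, at 129, 165 and 158 against 187, 173 and 198, a log2 difference of -0.28 (95% interval -0.59 to 0.03; adjusted p = 0.238). PRP2, which acts before the first catalytic step, read 68.6 and 78.2. PRP43 takes the spent spliceosome apart and also serves in ribosome assembly; it read 2363 ± 163 and 2236 ± 247, with overlap (log2 difference -0.08, 95% interval -0.32 to 0.16). In the Prp19 complex, the ubiquitin ligase gene PRP19 read 399.5, 404 and 373 in wild type and 503, 395 and 402 in H2B K123R, and 0.13 of log2 difference on all arrays became 0.02 without replicate 1. PRP45 and PRP46, the other members of the complex here, read 60.0 and 65.3, and 147 and 163.

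**Figure D4:**
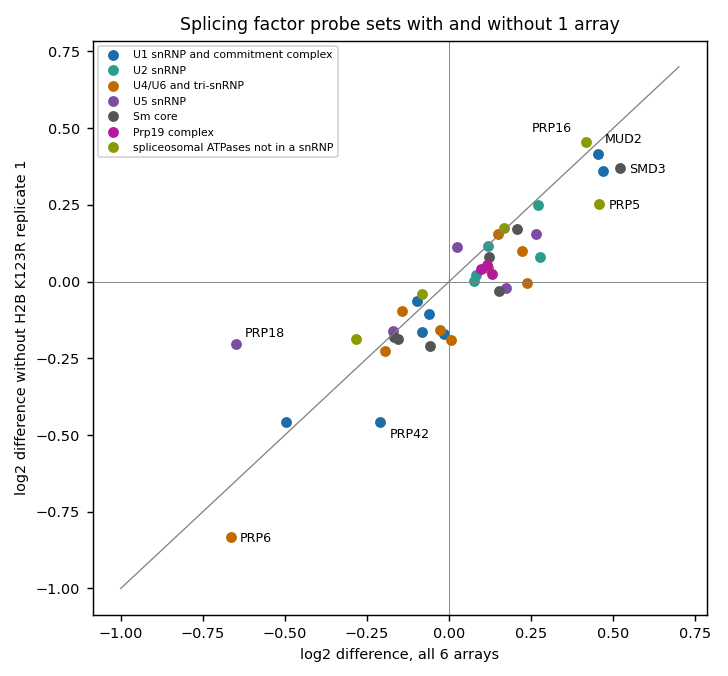
Log2 difference of each splicing factor probe set on all 6 arrays (x axis) and without H2B K123R replicate 1 (y axis), with the line of equality; colours mark the 7 groups of factors. Most points lie below the line, PRP18 lies well above it (-0.65 and -0.20), and PRP6 lies lower without the array (-0.83).

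Several differences moved with H2B K123R replicate 1. On that array 30 of the 42 probe sets lay above their wild-type mean, with a median of 0.22 on the log2 scale, against 18 on replicate 2 (median -0.04) and 23 on replicate 3 (median 0.03). Over all tested probe sets the same medians were 0.09, 0.0017 and -0.00094. Without that array 21 of the 42 differences were positive, their median was -0.0015, and SMD3 (higher) and PRP6 (lower) passed. The standard deviation over the mutant arrays was larger than over the wild-type arrays for 36 of the 42 (median 0.18 against 0.09 on the log2 scale), as it was for 6809 of all 9275 probe sets. What part of the members' differences comes with that array's 3′ to 5′ ratio was not tested.

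Calls near the threshold also differed between fits with other features tested together or with array weights. Which step of these fits moved the calls was not tested. Fitted as 1 value per gene, the mean of its probe sets, over the 5656 named genes, MUD2 (adjusted p = 0.0401), PRP6 (0.0397) and SMD3 (0.0451) passed, where 14.9% of all genes did. Their log2 differences are the same in both fits, because each has 1 probe set. With array weights, 8 of the 42 passed, 6 higher and 2 lower, in a fit that called 31.1% of all probe sets. Restricted to the 4637 probe sets above the median level, where 13.0% of all passed, MUD2 was the 1 member to pass (adjusted p = 0.0480). The 8 were MUD2, PRP40, SMD3, PRP16, PRP5 and LEA1, and in the other direction PRP6 and the dim PRP39 probe set. Over the 13 or 14 alternatives fitted by probe set for each member, the fit of 1 value per gene not counted, 34 of the 42 passed in none.

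Of 53 further splicing genes, each taken with its brightest probe set, none passed, against 8.98% of all genes taken in the same way. An unadjusted p under 0.05 was found for 9 (16.98%, against 30.7% of all genes). Of the differences 26 (49.1%) were positive and 27 negative, where 60.4% were positive over all genes, and the median was -0.0025, against 0.08. Among U1 genes SNP1, the yeast U1-70K, read 84.0 and 53.0 (log2 difference -0.54, adjusted p = 0.0917). SYF2, of the Prp19-associated complex, read 95.9, 94.7 and 92.4 in wild type and 135, 139 and 125 in H2B K123R, with adjusted p = 0.0702; it passed without a variance trend (0.0369). NTR2, which works with Prp43 in disassembly, read 82.8 and 117.5 (adjusted p = 0.107), and the tri-snRNP gene DIB1 359.7 and 457 (0.123). Of the Lsm ring of U6, LSM4 read 282 and 385 (0.138) and LSM5 761 and 577 (0.158). The smallest p of the remaining classes belonged to CWC23 (107 and 79.9), a spliceosomal J-domain protein gene, IST3 (35.7 and 46.8) of the RES complex, RDS3 (220 and 249) of U2, and CBC2 (766 and 932), a subunit of the nuclear cap-binding complex, all with adjusted p between 0.168 and 0.390. CBC2 read 1171 on H2B K123R replicate 1, and its log2 difference of 0.26 was 0.08 without that array. Those of LSM4 and LSM5 went from 0.41 to 0.26 and from -0.41 to -0.24.

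**Figure D5:**
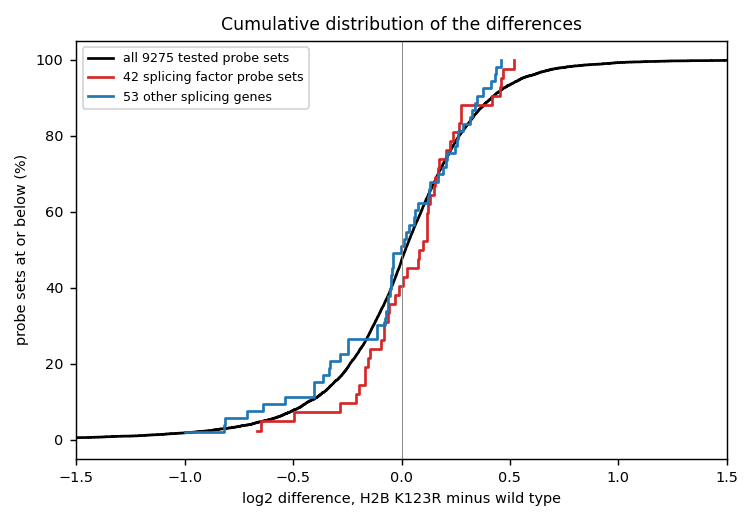
Cumulative share of probe sets (y axis, percent) at or below a given log2 difference of H2B K123R minus wild type (x axis, cut at 1.5 in either direction). The curve of the 42 splicing factor probe sets has its median at 0.09 and ends at 0.52; that of the 53 other splicing genes has its median at -0.0025, and that of all 9275 tested probe sets at 0.02.

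The substrates of these factors were examined in 83 measured intron-containing genes outside the ribosomal protein genes; the list includes the splicing genes MUD1, SMD2, LSM2, LSM7, YSF3 and STO1. Of these, 4 passed (4.82%, against 8.98% of all genes taken with 1 probe set each), 3 higher and 1 lower, and the median log2 difference was 0.07, against 0.08 over all genes. UBC5, a ubiquitin-conjugating enzyme gene, rose 2.23-fold from 157 ± 17.2 to 372 ± 57.9 (adjusted p = 0.0133). SNC1, a vesicle SNARE gene, rose 1.48-fold from 1006 to 1498, and its second probe set rose too (433 to 638). SRC1, an inner nuclear membrane protein gene looked at after its values were seen, was not among the 4: its brighter probe set did not pass (163 to 221, log2 difference 0.41, adjusted p = 0.103), while its dimmer one did (84.4 to 149.7, 0.72, 0.0467). OM14, of the mitochondrial outer membrane, rose 1.46-fold from 526 to 775, and PMI40, phosphomannose isomerase, fell 1.25-fold from 2620 to 2099 (adjusted p = 0.0217 and 0.0355). All 4 calls were lost when any wild-type array, or H2B K123R replicate 3, was left out, and that of PMI40 also without H2B K123R replicate 2 (adjusted p = 0.0604) and without a variance trend (0.0680). With the replicate number as a block, OM14 (0.0572) and PMI40 (0.0681) were lost. UBC5 has a close paralogue, UBC4, and whether its probe set separates them was not tested. The signals are of whole probe sets, so spliced and unspliced RNA were not measured apart.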

How the data were processed

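The authors deposited 1 intensity value per probe set and array, on a linear scale. The trimmed mean of each array (2% off each end) was 500.4 to 500.5, so the deposited intensities had been scaled, and the sources used here do not name the summarization software. Of 9335 probe sets, 60 controls were set aside. The platform annotation named 6504 of the rest with 1 gene. Log2(signal + 16) was tested two-sided in limma (version 3.58.1, R 4.3.3) by a linear model and trended empirical Bayes, with Benjamini-Hochberg adjustment over 9275 probe sets at a threshold of 0.05. No step between arrays was added. The number of arrays limits the precision. The fit was tested on simulated data with 100 probe sets raised 1.5-fold and 100 raised 2-fold. It called 25% of the former and 64% of the latter, and 4.3% of its calls were false. In that setting many true differences of these sizes were missed. The simulation changed no other probe set and had no array that stood apart as H2B K123R replicate 1 did. The real fit called 620 probe sets, so the share missed there can differ and was not tested.

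Alternatives were other pseudocounts (1 and 64), quantile and cyclic loess normalization, a filter on dim probe sets, a block on the replicate number, array weights, no variance trend, 1 value per gene, and leaving out each array. Same-numbered arrays correlated in their deviations from the group means at 0.32, 0.38 and 0.05, and differently numbered arrays at -0.39 to 0.02. The labels name no block, so the replicate number was used only as an alternative. Whether same-numbered arrays were handled together was not tested. The members and lists were chosen with earlier results of these data known. By rule, every member was named, array values were given for the smallest p of each group, and other splicing genes were named for the smallest p of their class, with 4 intron-containing genes. Array values of further members, and SRC1 and LSM5 beside those, were chosen after their values were seen.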

Additional observations from a re-analysis of the deposited data

How the results depend on the processing

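No splicing factor probe set passed with a pseudocount of 1 or 64, after quantile normalization, with a replicate block, without a variance trend, or when 1 of the 5 arrays besides H2B K123R replicate 1 was left out. Cyclic loess gave 2 (SMD3 higher and PRP6 lower), the filter on dim probe sets gave 1 of 21 (MUD2), array weights gave 8, and 1 value per gene gave 3 of 41. Leaving out 1 array gave 0 to 2. The members' median stayed between -0.0015 and 0.14 under all of these. With the replicate block 307 of all probe sets passed instead of 620, and 2 intron-containing genes (UBC5 and SNC1) instead of 4; the block changed no call of a splicing factor. With array weights 2885 probe sets, 9 other splicing genes and 25 intron-containing genes passed. Without a variance trend 1 other splicing gene (SYF2) and 3 intron-containing genes passed, PMI40 being lost. Leaving out 1 array gave 22 to 1023 of all probe sets, 0 to 1 other splicing genes (YSF3, without H2B K123R replicate 1) and 0 to 8 intron-containing genes. The causes were not tested.

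Uncalled differences changed sign in 14 of the 42 probe sets, among them SNU114 (0.26 in the main fit), SNU66 (0.24) and PRP42 (-0.21). After quantile normalization these were PRP4 (-0.030) and PRP8 (-0.065), after cyclic loess PRP9 (-0.026), MSL1 (-0.0099), PRP4 (-0.090) and PRP8 (-0.063), and with array weights SNU71 (0.070) and SNU114 (-0.050). When 1 array was left out, log2 differences ran from -0.19 to 0.22 for PRP4, -0.21 to 0.055 for SMD1, -0.16 to 0.10 for PRP3, -0.031 to 0.27 for SMB1, -0.0057 to 0.37 for SNU66, -0.022 to 0.33 for BRR2, -0.46 to 0.063 for PRP42, -0.16 to 0.037 for SNU56, -0.17 to 0.11 for MUD1 and -0.039 to 0.11 for PRP8.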

Other observations

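The array of H2B K123R replicate 1 read far lower than both other mutant arrays for several splicing genes outside the members. MSL5, which encodes the branch point binding protein and partner of Mud2, read 48.4 there, against 258 and 268 on replicates 2 and 3 of the mutant and 276 to 292 in wild type. YJU2, a factor of the first catalytic step, read 3.95 against 49.7 and 53.0, with 50.6 to 55.7 in wild type. CWC25, which acts at the same step, read 23.0 against 91.7 and 105, with 107 to 140 in wild type. AAR2, a U5 assembly factor, read 5.44 against 51.1 and 47.0, and BUD31, of the Prp19-associated complex, 57.6 against 164 and 145. In all, 5 of the 53 other splicing genes (9.43%) lay more than 1 below the mean of the other mutant arrays on the log2 scale, as did 1 of the 42 members (PRP18) and 420 of all 9275 probe sets (4.53%). The 53 were taken with 1 probe set per gene, and the share over all genes taken in the same way was not computed. None of the 53 and none of the 42 lay more than 1 above it, and 70 of all probe sets did. These genes were singled out after their values were seen.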
